A study of Arabidopsis thaliana with 18 samples.

Results

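The genes described here encode the factors that carry out the elongation step of cytosolic protein synthesis in Arabidopsis thaliana. They were chosen by locus and not by a cut on their values, though with earlier results of these data known. They are 9 of the 34212 loci in the deposited tables: the 4 genes of elongation factor eEF1A (AT1G07920, AT1G07930, AT1G07940 and AT5G60390), the eEF2 gene AT1G56070 (LOS1), 2 genes of the beta-type subunit of eEF1B (AT5G19510 and AT5G12110) and 2 genes of its gamma subunit (AT1G09640 and AT1G57720). All 9 were measured in every library and passed the filter on low counts in every comparison. The RNA came from leaves of Columbia-0 plants of 2 genotypes. The control was pad4-1, a mutant of PAD4, which encodes a lipase-like regulator of immunity, and the mutant was upf1-3 pad4-1, which also carries a mutation in UPF1, an RNA helicase that nonsense-mediated mRNA decay (NMD) cannot do without. Both genotypes thus carried pad4-1, and no library came from plants with an intact PAD4 gene. Plants spent 10 days on sucrose-containing MS medium and then grew in soil until 3 weeks after germination, at 22 °C with 16 h of light and 8 h of dark. From each genotype, total RNA, monosomal RNA (mRNA bound by a single ribosome) and polysomal RNA (mRNA bound by several ribosomes) were sequenced with 3 biological replicates each, which gave 18 libraries. The labels do not say how many plants made up a replicate or at what hour leaves were taken.

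Elongation begins when eEF1A, a GTPase, brings a charged tRNA to the ribosome and hydrolyses its GTP. The eEF1B complex then exchanges the bound GDP for GTP so that eEF1A can act again, the beta-type subunit being a catalytic exchange subunit and the gamma subunit a structural one. A second GTPase, eEF2, moves the ribosome along by a codon. Transcripts of these factors are among the most abundant in growing plant cells, and NMD itself acts on mRNA during translation.

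In the TAIR10.1 assembly the eEF1A copies AT1G07920 (chr1:2454771-2457321, plus strand), AT1G07930 (chr1:2458184-2460817, plus strand) and AT1G07940 (chr1:2462949-2465545, minus strand) stand next to each other on chromosome 1, and AT5G60390 (chr5:24288596-24291020, plus strand) lies on chromosome 5. Each has a coding sequence of 1350 bases, that is 449 codons, and each has an intron of between 499 and 645 bases within its 5′ UTR. No codon difference between the 4 coding sequences changes an amino acid. AT1G07920 and AT1G07940 differed at 6 bases (99.56% identity), AT1G07930 differed from those at 16 and 15 bases, and AT5G60390 differed from the other copies at 82 to 84 bases. In all, 90 of the 1350 coding positions varied among the copies. The stretch from coding base 34 to 93 holds 10 of them, the most among 60-base windows taken codon by codon. Most other stretches thus hold fewer letters that tell a read of one copy from a read of another. It is given 5′ to 3′ from RefSeq (TAIR10.1), with the varying bases in capitals.
AT1G07920: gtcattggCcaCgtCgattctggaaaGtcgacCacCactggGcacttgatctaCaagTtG
AT1G07930: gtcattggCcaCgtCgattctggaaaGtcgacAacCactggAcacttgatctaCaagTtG
AT1G07940: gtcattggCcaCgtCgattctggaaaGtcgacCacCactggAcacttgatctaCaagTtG
AT5G60390: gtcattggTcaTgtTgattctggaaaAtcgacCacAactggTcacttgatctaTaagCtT

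The copies can still be told apart by their UTRs, but to different degrees. Of all the 31-base words in a copy's transcript, 31 bases being the default word length of the quantification tool kallisto, 68.65% of those of AT1G07920, 54.61% of AT1G07930 and 65.97% of AT1G07940 also occur in another copy. For AT5G60390 the share was 13.53%. The values of the chromosome 1 copies are therefore uncertain, since the counting could divide shared reads among them, and the sum of the 4 copies is given beside them. The other members share few words: at most 1.458% between the gamma subunit genes, 0.2101% between the beta-type genes, and 0.8734% between eEF2 and any other coding gene. The gamma subunit genes AT1G09640 (chr1:3119739-3122542, plus strand, 414 codons) and AT1G57720 (chr1:21377320-21380382, plus strand, 413 codons) encode proteins that are 89.37% identical over their aligned length. The beta-type genes AT5G19510 (chr5:6581658-6583248, minus strand, 224 codons) and AT5G12110 (chr5:3914468-3916896, plus strand, 228 codons) encode proteins that are 81.14% identical. eEF2 is encoded by 843 codons at chr1:20967652-20971742 on the minus strand. AT5G60390, AT5G19510, AT5G12110 and AT1G09640 each overlap a gene on the opposite strand, while AT1G07920 and AT1G07940 each overlap a gene on the same strand that is annotated as a pseudogene. The libraries kept strand, but whether counting used it is not given in the sources used here.

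The upstream sequences of 2 members are shown because they hold both motifs that are well known from promoters of plant translation genes, the telo-box (AAACCCTA) and the site II element (TGGGCC or TGGGCT). Both motifs were searched on both strands in the 250 bases before each gene's annotated start, and the letters do not overlap. The windows are given 5′ to 3′ on the gene's strand (RefSeq, TAIR10.1), with matches on either strand in capitals. That of AT5G60390 is chr5:24288346-24288595 on the plus strand, and that of AT1G56070 is chr1:20971743-20971992 on the minus strand.
AT5G60390: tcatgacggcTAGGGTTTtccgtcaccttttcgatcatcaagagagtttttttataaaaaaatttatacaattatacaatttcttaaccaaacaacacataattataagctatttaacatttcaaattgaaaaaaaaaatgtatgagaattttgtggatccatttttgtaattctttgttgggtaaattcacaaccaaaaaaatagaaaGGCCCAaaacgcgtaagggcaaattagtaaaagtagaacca
AT1G56070: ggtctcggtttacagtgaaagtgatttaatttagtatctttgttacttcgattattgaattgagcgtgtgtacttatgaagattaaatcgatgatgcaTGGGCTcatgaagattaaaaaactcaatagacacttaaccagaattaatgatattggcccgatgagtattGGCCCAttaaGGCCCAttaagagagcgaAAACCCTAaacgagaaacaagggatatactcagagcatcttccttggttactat

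The telo-box occurred in 2 of 9 members and in 4.486% of the 27443 upstream windows of all coding genes. Site II occurred in 4 of 9 members (AT1G07940, AT5G60390, AT1G56070 and AT5G19510) and in 19.18% of all windows. Both together occurred in 2 of 9 members and in 1.363% of all windows. AT1G07920, AT1G07930, AT5G12110 and both gamma subunit genes held neither motif in this window.

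The libraries held between 16325537 and 81528839 estimated counts. Levels below are CPM, a gene's counts relative to its library's total, scaled to a common library size over all 18 libraries by the TMM method, with the mean ± SD of 3 libraries where one is given. UPF1 itself was lower in the mutant in total RNA (26.3 to 43.4 CPM against 64.8 to 79.0 CPM in the control) but its groups met or overlapped in monosomal RNA (36.2 to 41.6 against 41.6 to 46.5 CPM) and in polysomal RNA (26.2, 31.5 and 61.6 against 45.6 to 49.7 CPM), with log2 fold changes of -0.19 and -0.23 that did not pass. The library labelled mutant polysomal replicate 3 thus had more UPF1 than any control polysomal library. PAD4 was listed at no more than 1.86 CPM in every control library and at 2.22 to 42.8 CPM in the mutant libraries. Leaf markers, such as Rubisco and light-harvesting genes, summed to at least 10260 CPM in every library, and root hair markers to at most 0.684 CPM. The summed level of 5 genes that mark dividing cells was 87.5 to 121 CPM in total RNA of the control and 14.3 to 32.4 CPM in that of the mutant, 93.0 to 118 against 17.3 to 33.4 CPM in monosomal RNA and 119 to 199 against 11.5 to 63.7 CPM in polysomal RNA. None of the 5 was at 0 throughout a group, and 4, 3 and 2 of them fell in the mutant in total, monosomal and polysomal RNA. Flower markers, 7 in number, summed to 8.80 to 147 CPM in control and 1.41 to 4.88 CPM in mutant monosomal RNA, where 4 fell, as did 2 in polysomal and 0 in total RNA (edgeR, 1 at an unadjusted p under 0.05), and LTP12 was at 0 in every mutant polysomal library. Of 5 clock genes that mark the time of day, 2 rose and 3 fell in both monosomal and polysomal RNA, and in total RNA CCA1 alone was called, as higher. Mutant total replicate 3 stood apart there, with the morning gene LHY at 139 CPM against 1.04 and 1.92 CPM in mutant replicates 1 and 2, CCA1 at 54.2 against 3.61 and 2.46 CPM, and the evening-phased gene FKF1 at 0.309 against 48.6 and 45.5 CPM. All mutant monosomal and polysomal libraries resembled replicate 3 in these genes, with LHY at 139 CPM or more and FKF1 at 0.881 CPM or less, while mutant total replicates 1 and 2 lay near the control libraries. Total and ribosome-bound RNA of the mutant thus differed in clock gene levels as well. The part of dividing or floral cells and of the time of day in the results below was not tested, and in these bulk samples fewer cells of a type and less RNA per cell cannot be told apart. Chloroplast transcripts took 20.7 to 74.1% of all counts, the highest share standing in polysomal replicate 1 of the control.

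AT5G60390 was by far the most abundant elongation factor transcript. Per kilobase of transcript its level in control total RNA was 1784 ± 274 CPM per kb (SD, n = 3). eEF2 followed with 431 ± 98.8 CPM per kb, then AT1G07920 with 426 ± 132, AT1G07930 with 272 ± 69.5 and AT1G07940 with 257 ± 52.1 CPM per kb. The libraries of these last 4 genes overlapped between each neighbour in that order, so no neighbours among them are ordered beyond their spread. The eEF1B genes stood lower: AT5G19510 at 154 ± 14.7 CPM per kb, AT1G09640 at 82.1 ± 12.4 and AT1G57720 at 68.5 ± 6.49 CPM per kb, the last 2 overlapping. AT5G12110 was the low member, at 2.01 ± 0.371 CPM per kb, so that the beta-type subunit was represented almost wholly by AT5G19510. AT5G60390 led and AT5G12110 was last in each of the 6 groups. In mutant total RNA the order changed behind AT5G60390: AT1G07940 stood second at 527 ± 62.4 CPM per kb, and its libraries overlapped those of AT5G60390 at 667 ± 79.1 CPM per kb. Together the 9 members took 0.694 ± 0.0577% of all counts in total RNA of the control and 0.382 ± 0.0654% in that of the mutant. Of nuclear counts alone they took 1.22 ± 0.223% and 0.907 ± 0.124%.

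**Figure D1:**
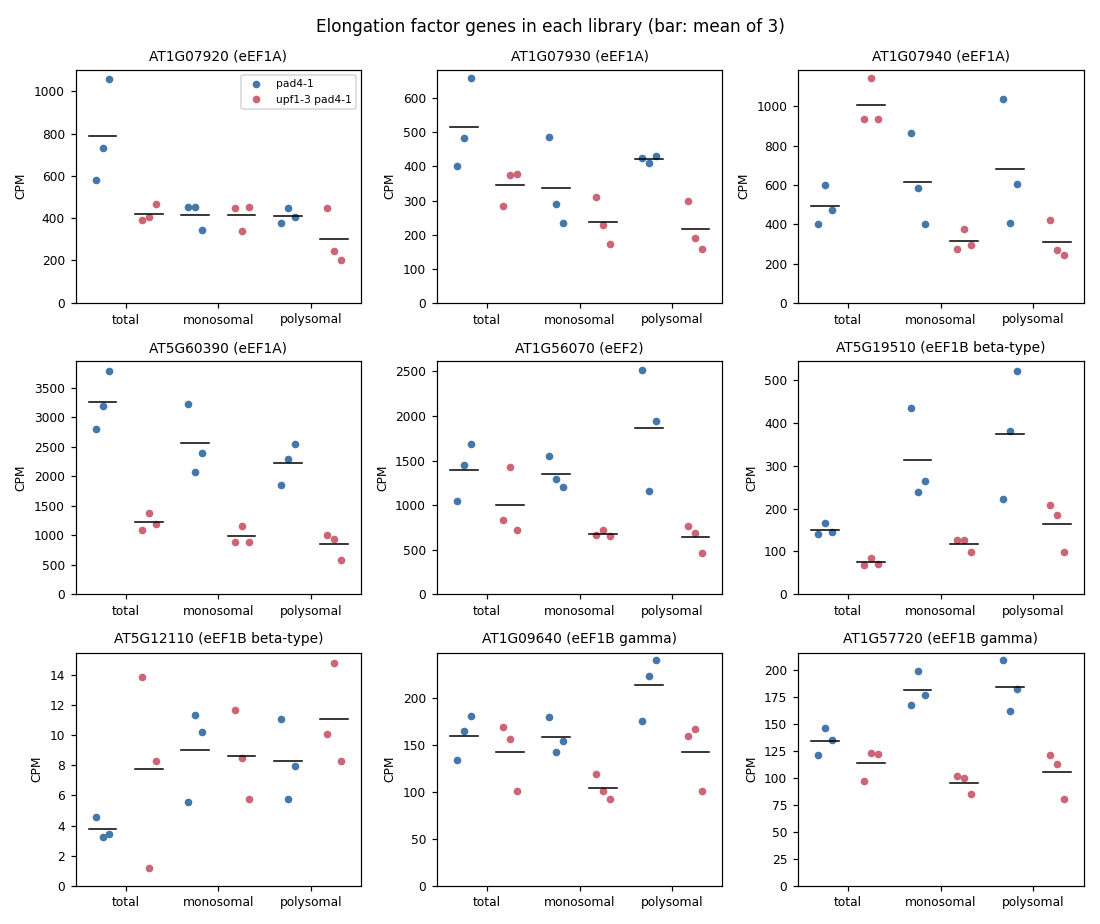
Level of each elongation factor gene in each library, in CPM (vertical axis, from 0, a different scale in each panel), by kind of RNA (horizontal axis). Points are libraries, blue for pad4-1 and red for upf1-3 pad4-1, and bars are means of 3. The red points of AT1G07940 lie above the blue ones in total RNA and below them in monosomal RNA.

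The first comparison asked how the upf1-3 mutation changed the level of these transcripts in total RNA. The main eEF1A copy AT5G60390, the copy AT1G07920 and the main beta-type gene of eEF1B, AT5G19510, fell, and the eEF1A copy AT1G07940 rose. AT5G60390 was at 2793, 3193 and 3786 CPM in control libraries and at 1089, 1374 and 1193 CPM in mutant libraries. All mutant libraries lay far below all control libraries. The log2 fold change of the mutant against the control was -1.46 (SE 0.27, adjusted p = 0.00782, edgeR quasi-likelihood test with Benjamini-Hochberg adjustment over 20302 genes). This call was kept when any library was left out.

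AT1G07940, a neighbouring copy that encodes the same protein, went the other way. Its level was 403, 598 and 470 CPM in control libraries and 935, 1142 and 937 CPM in the mutant. The groups did not overlap, the mutant being higher by a log2 fold change of 0.99 (SE 0.26, adjusted p = 0.0257). The call was lost when control replicate 1, 2 or 3 was left out, with adjusted p of 0.0965, 0.0633 and 0.0989 and log2 fold changes of 0.89 to 1.19. AT1G07920 fell, from 581, 732 and 1059 CPM in the control to 390, 407 and 466 CPM in the mutant. Its groups did not overlap either, and the log2 fold change was -0.95 (SE 0.29, adjusted p = 0.0431), a call that was lost without any 1 of the 6 libraries (adjusted p 0.0523 to 0.148) and without the count filter (adjusted p = 0.0524). For AT1G07930 the control libraries at 401, 484 and 659 CPM lay above the mutant ones at 284, 374 and 377 CPM, but the log2 fold change of -0.62 did not pass (adjusted p = 0.131). The 4 copies summed to 5053 ± 900 CPM in control libraries and 2989 ± 300 CPM in the mutant, without overlap, and the log2 fold change of the sum was -0.80 (SE 0.28, adjusted p = 0.0638). The sum passed with DESeq2 (adjusted p = 0.00969) and without TMM scaling (adjusted p = 0.0241).

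The makeup of the eEF1A transcripts differed accordingly. AT1G07940 took 9.64, 11.9 and 7.87% of the eEF1A counts in total RNA of the control and 34.7, 34.6 and 31.5% in that of the mutant. AT5G60390 took 66.9, 63.8 and 63.4% in control libraries and 40.4, 41.7 and 40.1% in the mutant. For these copies no mutant share reached into the range of the control shares. The shares of the other copies overlapped between the genotypes, at 15.4 ± 2.04 and 14.1 ± 1.68% for AT1G07920 and at 10.1 ± 0.804 and 11.5 ± 1.09% for AT1G07930. In the ribosome-bound RNA the share of AT1G07920 was higher in the mutant without overlap, at 21.5 ± 4.76 against 10.8 ± 2.20% in monosomal and 17.6 ± 2.87 against 11.01 ± 1.40% in polysomal RNA. The share of AT1G07930 was also higher in mutant polysomal RNA, narrowly without overlap (12.9 ± 1.11 against 11.3 ± 0.415%). In monosomal RNA it overlapped (12.2 ± 3.50 against 8.38 ± 1.38%). The share of AT5G60390 was lower in mutant monosomal RNA without overlap (50.2 ± 4.65 against 65.3 ± 5.08%) and overlapped in polysomal RNA (50.8 ± 5.54 against 59.4 ± 8.09%). The shares were not tested as such.

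**Figure D2:**
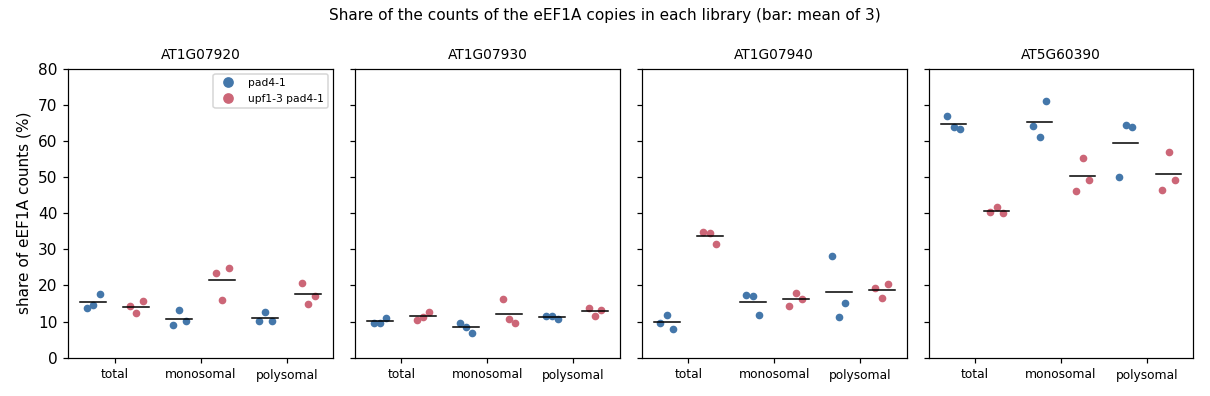
Share of the summed counts of the 4 eEF1A copies taken by each copy (vertical axis, in percent) in each library, by kind of RNA (horizontal axis). Points are libraries, blue for pad4-1 and red for upf1-3 pad4-1, and bars are means of 3. AT1G07940 stands at 33.6% on average in mutant total RNA and between 9.82 and 18.7% in the other groups.

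eEF2 did not pass in total RNA. Its level was 1050, 1454 and 1681 CPM in control libraries and 837, 1433 and 721 CPM in the mutant, with mutant replicate 2 inside the control range, and the log2 fold change was -0.53 (SE 0.35, adjusted p = 0.282). Mutant total replicate 2 was also the library with the most nuclear ribosomal RNA, at 10.4% of its counts.

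Among the eEF1B genes, AT5G19510 fell from 140, 167 and 145 CPM in the control to 68.4, 85.3 and 71.3 CPM in the mutant. The groups did not overlap, and the log2 fold change was -1.05 (SE 0.21, adjusted p = 0.0113), or -0.94 with an adjusted p of 0.0679 when control replicate 2 was left out. AT5G12110 ranged from 3.25 to 4.54 CPM in control libraries and was at 13.9, 1.17 and 8.29 CPM in the mutant. The mutant libraries thus stood on either side of the control ones, and the log2 fold change of 0.99 had an SE of 0.70 (adjusted p = 0.319). Without mutant replicate 2 it was 1.54 and passed (adjusted p = 0.00831). The sum of both beta-type genes fell by 0.94 on the log2 scale (SE 0.20, adjusted p = 0.0127), or by 0.84 with an adjusted p of 0.0773 without control replicate 2. The gamma subunit genes overlapped between the genotypes, with log2 fold changes of -0.22 (SE 0.26) for AT1G09640 and -0.28 (SE 0.22) for AT1G57720, at adjusted p of 0.554 and 0.369.

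In all, 3 of the 9 members fell and 1 rose in total RNA, where 12.5% of all tested genes fell and 15.3% rose. Without mutant replicate 2, the library rich in ribosomal RNA, 2 fell and 2 rose, and without mutant replicate 3, which stood apart in clock genes, 2 fell and 1 rose. All genes called in these fits, in either direction, numbered 5682 and 6109, against 5638 with all libraries. Non-overlapping groups with the mutant lower were found for 4 members and with the mutant higher for 1, against 22.4% and 25.3% of all tested genes. The median log2 fold change of the members was -0.53, and that of all tested genes was 0.03. For comparison, 99 loci were taken as cytosolic ribosomal protein genes by the wording of the annotation. This group is rough and leaves out genes worded otherwise, such as RPL5B. Of these loci 90 were tested, of which 66 fell and 2 rose, with a median log2 fold change of -1.31. Members with site II in the upstream window were AT1G07940, which rose, AT5G60390 and AT5G19510, which fell, and eEF2, which did not pass.

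**Figure D3:**
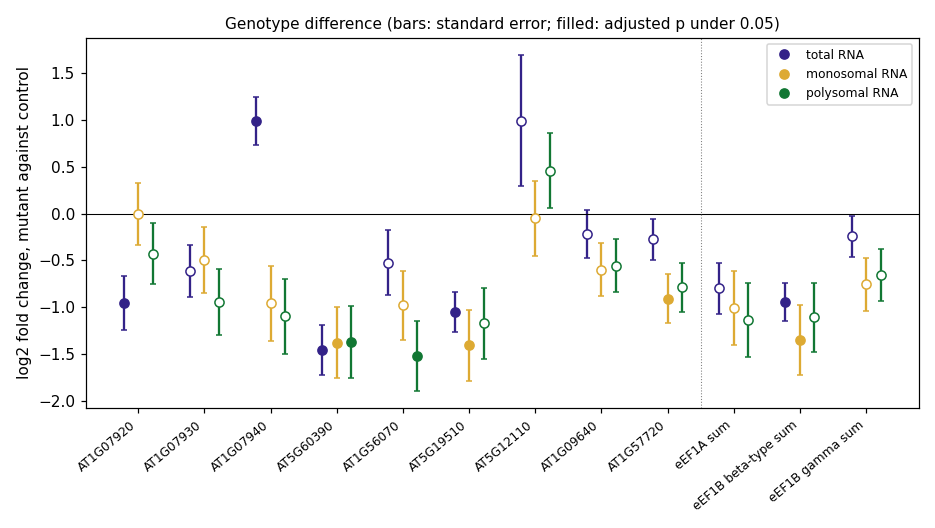
Log2 fold change of upf1-3 pad4-1 against pad4-1 (vertical axis) for each elongation factor gene and for the sums of eEF1A, beta-type and gamma subunit genes (horizontal axis), in total, monosomal and polysomal RNA. Error bars are standard errors, and filled points passed an adjusted p of 0.05. AT5G60390 lies between -1.37 and -1.46 in all kinds of RNA, and AT1G07940 at 0.99 in total RNA and at -0.96 and -1.10 in monosomal and polysomal RNA.

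The annotation was searched for transcript features that can mark a target of NMD in plants. No annotated transcript of any member has an exon junction more than 50 nt after the stop codon. A 3′ UTR of over 350 nt is annotated for 4 of 4 transcripts of AT1G07940, 3 of 3 of eEF2, 1 of 1 of AT5G12110, 1 of 2 of AT1G07930 and 1 of 2 of AT1G09640. Upstream reading frames of 16 codons or more were found in the single transcript of AT1G07920, 2 of 4 of AT1G07940, 1 of 3 of AT5G60390, 2 of 3 of eEF2 and 1 of 2 of AT1G57720. AT1G07940, which rose in total RNA, has both a long 3′ UTR and such a reading frame, and so does eEF2, which did not pass. AT1G07920 and AT5G60390, which fell, have such a reading frame in at least 1 transcript. AT5G19510, which also fell, has neither feature. How common these features are among all genes was not computed, and their part in the results was not tested. The tables hold counts per gene, so transcripts of a gene were not told apart.

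The same question was asked of the ribosome-bound RNA. In monosomal RNA the main eEF1A copy, the main beta-type gene and a gamma gene of eEF1B fell. AT5G60390 was at 3214, 2077 and 2385 CPM in control libraries and 886, 1164 and 887 CPM in the mutant, a log2 fold change of -1.38 (SE 0.38, adjusted p = 0.0275). AT5G19510 was at 435, 240 and 264 CPM in control libraries and 126, 126 and 99.7 CPM in the mutant, a log2 fold change of -1.41 (SE 0.38, adjusted p = 0.0243). The gamma gene AT1G57720 was at 167, 199 and 177 CPM in control libraries and 101, 100.1 and 84.8 CPM in the mutant, a log2 fold change of -0.91 (SE 0.26, adjusted p = 0.0314). These 3 members fell, with no overlap between the groups. AT1G07940, which had risen in total RNA, was at 865, 584 and 400 CPM in control libraries and 273, 376 and 296 CPM in the mutant. Here all its mutant libraries lay below all control libraries, and the log2 fold change was -0.96 (SE 0.40, adjusted p = 0.124), which passed with DESeq2 (adjusted p = 0.0375).

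The remaining members did not pass in monosomal RNA. eEF2 was at 1554, 1294 and 1199 CPM in control libraries and 667, 720 and 652 CPM in the mutant, without overlap, with a log2 fold change of -0.98 (SE 0.37, adjusted p = 0.0936), which passed with DESeq2 (0.00606) and limma-voom (0.0452). AT1G09640 had a log2 fold change of -0.60 (adjusted p = 0.175), also without overlap. AT1G07920 (416 ± 63.0 against 413 ± 64.7 CPM), AT1G07930 (337 ± 133 against 237 ± 69.0 CPM) and AT5G12110 (9.03 ± 3.05 against 8.62 ± 2.97 CPM) overlapped between the genotypes. The eEF1A sum went from 3928 ± 944 to 1944 ± 151 CPM, without overlap (log2 fold change -1.01, SE 0.40, adjusted p = 0.108), which passed with DESeq2 (0.00125) and limma-voom (0.0415). The beta-type sum fell, from 322 ± 103 to 126 ± 17.8 CPM (log2 fold change -1.35, SE 0.37, adjusted p = 0.0275), a call lost without TMM scaling (0.415) or without control replicate 1 or 3 or any 1 of the mutant replicates (0.0507 to 0.0975).

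Of the 9 members, 3 fell and 0 rose in monosomal RNA (edgeR, 6 at an unadjusted p under 0.05), where 4.6% of all tested genes fell and 8.07% rose. The groups did not overlap, with the mutant lower, for 6 members, against 14.8% of all tested genes. The median log2 fold change was -0.91 for the members, 0.02 for all genes and -1.05 for the ribosomal protein genes, of which 38 fell. These calls depend on the scaling and on single libraries. Without TMM scaling the median of all genes shifted by 0.60, the members were at -0.72 (AT5G60390), -0.74 (AT5G19510) and -0.32 (AT1G57720), and none passed. The call of AT5G60390 was lost without any 1 of the 6 monosomal libraries (adjusted p 0.0528 to 0.0853). That of AT5G19510 was lost without control replicate 1 or any 1 of the mutant replicates (0.0516 to 0.0887). That of AT1G57720 was lost without control replicate 2 or 3 or any 1 of the mutant replicates (0.0605 to 0.116), and without the count filter (0.0762).

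In polysomal RNA, with all libraries kept, eEF2 showed the largest difference among the members. Its level was 2513, 1158 and 1941 CPM in control libraries and 762, 684 and 469 CPM in the mutant. The groups did not overlap, and the log2 fold change was -1.52 (SE 0.37, adjusted p = 0.0132). eEF2 was highest in control replicate 1, the library with 74.1% chloroplast counts. Without that library its log2 fold change was -1.26, smaller in size than those of AT5G60390 (-1.50) and AT5G19510 (-1.44). AT5G60390 was at 1848, 2284 and 2538 CPM in control libraries and 1010, 942 and 586 CPM in the mutant, again without overlap (log2 fold change -1.37, SE 0.38, adjusted p = 0.026). These 2 members fell. AT1G07940 was at 1039, 404 and 603 CPM in control libraries and 420, 271 and 245 CPM in the mutant, where control replicate 2 lay inside the mutant range, and its log2 fold change was -1.10 (SE 0.40, adjusted p = 0.0804). AT1G07940 passed with DESeq2 (adjusted p = 0.0153) and was likewise highest in control replicate 1. AT5G19510 was at 223, 381 and 521 CPM in control libraries and 209, 186 and 97.9 CPM in the mutant, without overlap but narrowly not past the threshold (log2 fold change -1.17, SE 0.38, adjusted p = 0.0511). It passed in 6 of the 7 alternative fits that kept all libraries, the exception being the fit without TMM scaling, and also without control polysomal replicate 1 (0.0208) or control monosomal replicate 1 (0.0424).

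The gamma gene AT1G57720 had a log2 fold change of -0.79 (adjusted p = 0.0568) and AT1G09640 of -0.56 (adjusted p = 0.217), both without overlap. AT1G57720 passed with nuclear genes only (0.0491), DESeq2 (0.00747), limma-voom (0.0392) and the replicate block (0.0453). The beta-type sum did not pass in the main fit. It passed with DESeq2 (log2 fold change -1.12, adjusted p = 0.0108), without the count filter (0.0315) and without control polysomal replicate 1 (0.0255). AT1G07930 was at 426, 409 and 431 CPM in control libraries and 298, 191 and 159 CPM in the mutant, without overlap (log2 fold change -0.94, adjusted p = 0.0911). It passed with DESeq2 (0.0222) and the replicate block (0.0282). AT1G07920 (-0.43) and AT5G12110 (0.46) overlapped between the genotypes. The 4 eEF1A copies summed to 3689, 3545 and 3977 CPM in control libraries and 2177, 1652 and 1195 CPM in the mutant. The groups did not overlap, and the log2 fold change of the sum was -1.14 (SE 0.40, adjusted p = 0.0719), which passed with nuclear genes only (0.0413), DESeq2 (0.000223) and limma-voom (0.0156). In polysomal RNA 2 of 9 members fell and 0 rose (edgeR, 6 at an unadjusted p under 0.05), where 5.04% of all tested genes fell and 8.34% rose, and 6 members had non-overlapping groups with the mutant lower, against 17.1% of all tested genes. The median log2 fold change was -0.94 for the members, 0.03 for all genes and -1.18 for the ribosomal protein genes, of which 47 fell. Without TMM scaling the median of all genes shifted by 0.44 and neither call was kept (-0.95 for eEF2 and -0.94 for AT5G60390). The call of eEF2 was lost without control replicate 3 (adjusted p = 0.0538) or mutant replicate 3 (0.0639), and that of AT5G60390 without control replicate 2 or 3 (0.0917 and 0.116) or mutant replicate 2 or 3 (0.0656 and 0.114). Both calls were thus lost without the library labelled mutant replicate 3, in which UPF1 was high. Without control replicate 1, the library rich in chloroplast counts, 3 members fell, and with the replicate numbers as a block 5 did. All genes called in these fits, in either direction, numbered 2508 and 3138, against 2796 in the main fit.

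Whether elongation factor mRNA was loaded differently with ribosomes was asked by comparing polysomal with monosomal RNA. No member passed the test within either genotype. In the control the log2 fold change of polysomal against monosomal RNA ran from -0.22 (AT5G60390) to 0.45 (eEF2), and in the mutant from -0.46 (AT1G07920) to 0.48 (AT5G19510). With edgeR 0 of 9 members passed in either genotype, and 0 had an unadjusted p under 0.05, as DESeq2 and limma-voom also called 0. Over all genes 0.153% were higher and 0.172% lower in the control, while in the mutant 0.57% were higher and 0.536% lower. The difference of this ratio between genotypes ran from -0.54 (SE 0.52, eEF2) to 0.51 (SE 0.57, AT5G12110), and 0 of 9 members passed with any of these tools, where 0% of all genes were called in either direction by edgeR. The standard errors of the members' differences were 0.37 to 0.57, in fits that did not pair libraries by replicate number.

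Polysomal RNA was then compared with total RNA, with all 18 libraries in the fit. The beta-type gene AT5G19510 was higher in polysomal than in total RNA in both genotypes. In the control, 223, 381 and 521 CPM in polysomal RNA stood against 140, 167 and 145 CPM in total RNA, and in the mutant 209, 186 and 97.9 CPM stood against 68.4, 85.3 and 71.3 CPM. The groups did not overlap in either genotype, with log2 fold changes of 1.31 (SE 0.34, adjusted p = 0.0438) and 1.13 (SE 0.34, adjusted p = 0.04). The control call was lost without TMM scaling (0.23) and when any of 12 of the 18 libraries was left out (0.0505 to 0.234), among them each control total library and control polysomal replicates 2 and 3. The mutant call was lost with the replicate block (0.0515) and when any of 11 of the 18 was left out (0.0507 to 0.133). The difference between the genotypes was -0.18 (SE 0.47, adjusted p = 0.998).

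AT1G07940 was called lower in polysomal than in total RNA in the mutant, where 420, 271 and 245 CPM in polysomal RNA stood against 935, 1142 and 937 CPM in total RNA. The groups were far apart, with a log2 fold change of -1.69 (SE 0.37, adjusted p = 0.00846), a call kept when any library was left out and at an adjusted p of 0.0529 without TMM scaling. Without mutant total replicate 3, the only mutant total library that resembled the polysomal ones in clock genes, it was -1.76 (edgeR, adjusted p = 0.0107). The mutant total libraries left in that fit differed from the polysomal ones in clock genes, so the part of the time of day was not tested. Without the library labelled mutant polysomal replicate 3 the log2 fold change was -1.58 (edgeR, adjusted p = 0.0326). In the control its log2 fold change was 0.48 (SE 0.37, adjusted p = 0.564). The difference between the genotypes was -2.16 (SE 0.52), with an unadjusted p of 0.000522 and an adjusted p of 0.339 in edgeR, and it passed in DESeq2 (-2.17, adjusted p = 0.00357). Without control polysomal replicate 1, the library rich in chloroplast counts, the control value was 0.0027 and the difference -1.72 (adjusted p = 0.559 in edgeR). In monosomal RNA the same copy stood at 16.1 ± 1.82% of the eEF1A counts in the mutant and 15.4 ± 3.06% in the control, and in polysomal RNA at 18.7 ± 2.10% and 18.2 ± 8.80%. Its shares overlapped between the genotypes in both kinds of ribosome-bound RNA.

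**Figure D4:**
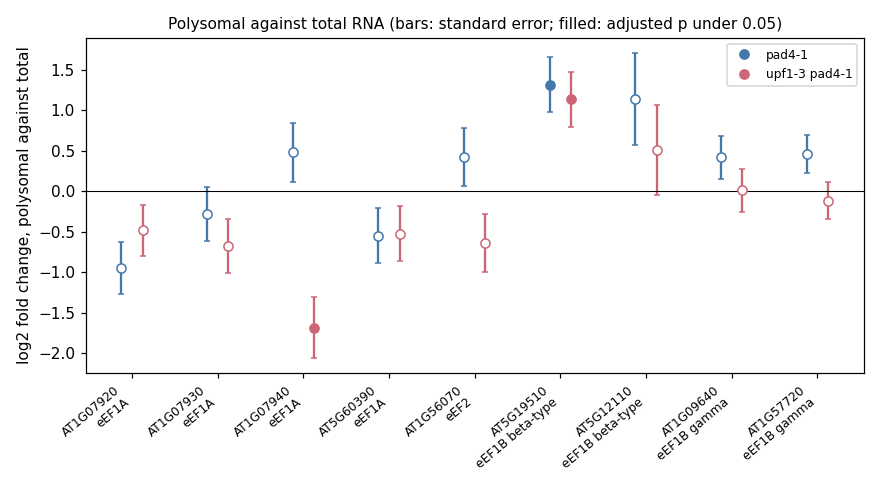
Log2 fold change of polysomal against total RNA (vertical axis) for each elongation factor gene (horizontal axis) in pad4-1 (blue) and upf1-3 pad4-1 (red). Error bars are standard errors, and filled points passed an adjusted p of 0.05. AT5G19510 lies above 0 in both genotypes at 1.31 and 1.13, and AT1G07940 lies at 0.48 in control libraries and at -1.69 in the mutant.

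Among the other members, AT1G07920 had a log2 fold change of polysomal against total RNA of -0.95 in the control (SE 0.32, adjusted p = 0.121) and eEF2 of 0.42 in control libraries and -0.64 in the mutant, a difference of -1.07 (SE 0.51, unadjusted p = 0.0501, adjusted p = 0.725). Without control polysomal replicate 1, eEF2 was at 0.11 in the control, and its difference was -0.79. The eEF1A sum had a log2 fold change of polysomal against total RNA of -0.44 in control plants (SE 0.35, adjusted p = 0.595) and of -0.84 in the mutant (SE 0.36, adjusted p = 0.157), the latter passing with DESeq2 (0.00541) and limma-voom (0.0381). Its difference between the genotypes was -0.40 (SE 0.50, adjusted p = 0.955), and 0.29 without TMM scaling. In the control 1 of 9 members was higher and 0 lower, where 1.39% of all genes were higher and 1.09% lower. In the mutant 1 was higher and 1 lower, where 5.23% and 3.72% of all genes were. For the difference between genotypes 0 of 9 members and 0% of all genes passed in edgeR in either direction, 1 member having an unadjusted p under 0.05. DESeq2 called 1 member, AT1G07940, and limma-voom 0. Over all 21905 genes they called 53 and 2. Total and polysomal libraries were deposited in separate tables, so levels set across them rest on the joint scaling used here.

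Of 12 other listed genes of cytosolic elongation 11 were tested. In total RNA 2 rose, 2 fell and 7 did not pass, with a median log2 fold change of -0.06, where 15.3% of all genes rose and 12.5% fell. Deoxyhypusine synthase (AT5G05920), which modifies the elongation factor eIF5A, rose from 4.72, 5.46 and 4.72 CPM to 30.4, 16.8 and 23.1 CPM (log2 fold change 2.19, SE 0.26, adjusted p = 0.00227). The eEF2-like gene AT3G12915 rose from 3.26, 3.33 and 3.09 CPM to 9.25, 12.1 and 8.45 CPM (log2 fold change 1.58, SE 0.25, adjusted p = 0.00474). One of the eIF5A genes, AT1G26630, fell (-1.06, SE 0.24, adjusted p = 0.0161), and so did AT1G30230, which encodes the second exchange subunit of eEF1B. AT5G05920 also rose in monosomal (1.27, adjusted p = 0.0192) and polysomal RNA (1.14, adjusted p = 0.0306), and AT3G12915 in polysomal RNA (2.56, adjusted p = 0.0105). They were the only genes of this list called there, where 8.07% of all tested genes rose in monosomal and 8.34% in polysomal RNA. The eEF2-like gene stayed low, at no more than 12.1 CPM in any library, against 469 CPM or more for eEF2.

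Elongation factors of the organelles are of bacterial type and are encoded by separate nuclear genes. Of 9 such genes 4 fell and 0 rose in total RNA (edgeR), where 12.5% of all tested genes fell and 15.3% rose. Chloroplast EF-Tu (AT4G20360), the counterpart of eEF1A, fell with a log2 fold change of -1.73 (SE 0.36, adjusted p = 0.0118), chloroplast EF-G (AT1G62750), the counterpart of eEF2, with one of -1.304 (SE 0.28, adjusted p = 0.0141) and chloroplast EF-Ts (AT4G29060), the exchange factor, with one of -1.24 (SE 0.28, adjusted p = 0.0154). The fourth was the mitochondrial EF-Tu gene AT4G02930. Leaf markers were lower in mutant total RNA as well, at 10260 to 16051 CPM in sum against 26652 to 32367 CPM, with 3 of 6 called, and their part in these values was not tested. In ribosome-bound RNA none of these 4 genes passed. The chloroplast LEPA gene AT5G08650 rose in monosomal and polysomal RNA, where 8.07% and 8.34% of all tested genes rose. The mitochondrial EF-Ts gene AT4G11120 fell in polysomal RNA, where 5.04% of all tested genes fell.

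Across all 18 libraries the families followed each other to different degrees, which is given as a description, since the libraries share genotypes and kinds of RNA. Pearson's r of log2 CPM was 0.85 between the eEF1A sum and eEF2 and 0.85 between eEF2 and the gamma sum, but 0.40 between the eEF1A sum and the beta-type sum. Within eEF1A, AT5G60390 followed AT1G07930 (0.80) and AT1G07920 (0.68) more closely than AT1G07940 (0.37). Of 9568 non-member genes with a mean log2 CPM of at least 3, those most like the eEF1A sum were the aspartyl protease gene AT1G01300 (0.96), the alpha-tubulin gene TUA5 (0.95) and the cytosolic chaperonin gene AT1G24510 (0.94), where the median r over all these genes was 0.07. The gene most like eEF2 was EIF4A1 (0.92), which encodes an RNA helicase of translation initiation, followed by AT2G16660 (0.90) and ECIP1 (0.90). Those most like the beta-type sum were AT4G39170 (0.92), RPL5B (0.92), a gene of ribosomal protein L5, and AT4G28310 (0.91). For the gamma sum they were AT4G19006 (0.96), annotated with a proteasome component domain, AT2G38550 (0.94) and AT1G31850 (0.91).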

How the data were processed

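The authors deposited expected counts, estimated per gene, in 2 tables, 1 of the 6 total RNA libraries and 1 of the 12 monosomal and polysomal libraries. Single-end, strand-specific libraries were made after ribosomal RNA depletion, per the labels' protocols. TAIR10, kallisto 0.43.0 and limma are named, without their roles, per the submitters' processing notes, and how estimates were summed per gene is not given in the sources used here. Counts were rounded to whole numbers and tested with edgeR 4.0.16 in R 4.3.3 (quasi-likelihood test, TMM scaling, filterByExpr with a minimum of 10, Benjamini-Hochberg adjustment over all tested genes, two-sided, called under 0.05). Total RNA was fitted alone, monosomal with polysomal RNA, and polysomal against total RNA over 18 libraries. The SE is the log2 fold change over the square root of F. The fits were run on simulated counts with a fixed spread, no shared reads, and changes larger than those of the members called here. That run does not show how well the members' calls hold. Alternatives were DESeq2 1.42.0, limma-voom (limma 3.58.1), other scalings, no count filter, nuclear genes only, a replicate block and each library left out.

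The members, the lists and the tests were chosen with earlier results of these data known. All members are named; of other elongation genes those with the 3 smallest p in total RNA in each list have their values given, and genes beyond these 3 were named after their values were seen. Of all loci 33437 (97.7%) matched RefSeq's TAIR10.1 annotation by identifier. Coordinates and sequences are from that assembly and were computed with Python 3.11.15 and Biopython 1.88. Within each genotype, same-numbered monosomal and polysomal libraries deviated together (correlation of deviations 0.12 to 0.47 in all 6 pairs). In the control, unlike-numbered libraries of replicates 2 and 3 correlated at 0.20, above the 0.12 of the same-numbered libraries of replicate 2. The replicate block for these kinds of RNA took the numbers as pairing the libraries, and the main fits did not. p-values measure the spread between the samples that the labels call biological replicates. Protein sequences and transcript-level values were not used here.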

Additional observations from a re-analysis of the deposited data

Results flagged for a closer look

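The genotype difference of AT1G07940 went in opposite directions in total and in monosomal RNA, with every mutant library above every control library in total RNA and every mutant library below every control library in monosomal RNA. The difference between these effects was -2.004 on the log2 scale (SE 0.52), with an unadjusted p of 0.00104 and an adjusted p of 0.231 in an edgeR fit of all 18 libraries, a test added after the values had been seen, in which 0 of 21905 genes passed. Between total and polysomal RNA the difference was -2.16 (adjusted p = 0.339), or -1.72 without control polysomal replicate 1. The copy shares 65.97% of its 31-base words with other eEF1A copies, and the part of that in the difference was not tested.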

How the results depend on the processing

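The members called lower in monosomal RNA (3) were 0 without TMM scaling and 5 with DESeq2. All genes called there, in either direction, numbered 2647 in the main fit, 3289 without TMM scaling and 3874 with DESeq2. The members called lower in polysomal RNA (2) were 0 without TMM scaling, 4 with nuclear genes only, 6 with DESeq2, 4 with limma-voom and 5 with the replicate block. All genes called there, in either direction, numbered 2796 in the main fit, 2352 without TMM scaling and 2826 with nuclear genes only. They numbered 3791 with DESeq2, 2306 with limma-voom and 3138 with the replicate block. For polysomal against total RNA in the control, 0 instead of 1 were higher without TMM scaling and 1 instead of 0 lower with DESeq2. All genes called in that comparison numbered 543 in the main fit, 170 without TMM scaling and 1373 with DESeq2. In the mutant 0 instead of 1 were higher with the replicate block and 0 instead of 1 lower without TMM scaling. All genes called numbered 1960 in that main fit, 2002 with the replicate block and 1388 without TMM scaling. For the difference between genotypes DESeq2 called 1 lower instead of 0, and 53 of all genes instead of 0. With 1 library left out at a time the members called in total RNA numbered 0 to 2 higher and 1 to 2 lower, those called lower numbered 0 to 3 in monosomal and 0 to 3 in polysomal RNA, and those higher in polysomal than in total RNA numbered 0 to 1 in the control and 0 to 1 in the mutant. All genes called then numbered 2051 to 6109 in total, 1380 to 2887 in monosomal and 1418 to 3152 in polysomal RNA.

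Log2 fold changes near 0 changed sign. In monosomal RNA AT1G07920 (-0.0036) was at 0.60 without TMM scaling, 0.0061 with nuclear genes only, 0.0015 with limma-voom, 0.00078 without the count filter, 0.0051 with the replicate block and -0.12 to 0.12 with 1 library left out. AT5G12110 (-0.05) was at 0.49 without TMM scaling, 0.040 with limma-voom and -0.33 to 0.18 with 1 library left out. AT1G07930 (0.17) and AT1G09640 (0.025) changed sign without TMM scaling, as did AT1G07920 in polysomal RNA (0.047). The genotype difference of polysomal against total RNA was 0.42 for AT5G19510 and 0.29 for the eEF1A sum without TMM scaling, and -0.45 to 0.14 for AT5G19510 with 1 library left out. Across genotypes, same-numbered libraries did not all deviate together (-0.18 to 0.18), so there the block rests on numbers only. For polysomal against monosomal RNA, where the block pairs libraries of a genotype by number, it changed no call of a member. Over all genes it raised the calls from 68 to 481 in the control and from 231 to 624 in the mutant. Without TMM scaling the median of all genes shifted by -0.17 in total RNA. With 3 libraries a group, single libraries decided many calls, and the near-identical eEF1A copies limit what depth can resolve.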
